A study of Mus musculus with 8 samples.

Results

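The 9 genes described here encode proteins that write, maintain or remove 5-methylcytosine in mouse embryonic stem cells (mESCs). They are given by name, a rule that uses no measured value, although earlier results of these data were known when the rule was made: *Dnmt1*, *Uhrf1*, *Dnmt3a*, *Dnmt3b*, *Dnmt3l*, *Tet1*, *Tet2*, *Tet3* and *Tdg*. All 9 are among the 43309 genes of the deposited count table, and all 9 are among the 16816 genes that reached 10 counts in at least 1 library and were tested. The study used the SMARTer Ultra Low RNA Kit, which makes cDNA directly from lysed cells, on mESCs of strain J1 (129SV) labelled *Zbtb24* wild-type (2lox/+) or *Zbtb24* knockout (1lox/1lox). Each genotype was profiled from 1000 cells (about 10 ng of RNA and 10 PCR cycles) and from 100 cells (about 1 ng and 18 cycles), with 2 libraries in each of the 4 groups. Cell number and PCR cycles changed together and cannot be told apart. All cells were grown in serum medium on gelatin with no feeder cells. The series describes the 2 lines of each genotype as separate clones, while the paper names more lines of each genotype than this. Neither says which clone gave which library, so p-values measure the spread between libraries. WT and KO below are the labels of the libraries.

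DNA methylation is copied at replication by DNMT1, which UHRF1 brings to hemimethylated sites. New marks are set by DNMT3A and DNMT3B, helped by DNMT3L, which binds them but has no catalytic activity of its own. TET1, TET2 and TET3 oxidise 5-methylcytosine, and TDG cuts out the most oxidised forms so that base excision repair can restore cytosine. mESCs in serum are known for high levels of DNMT3L and TET1, and they tolerate loss of the methyltransferases.

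The libraries held 9666985 to 16686525 counts. *Zbtb24*, the targeted gene, encodes a zinc finger protein whose loss in humans causes an immunodeficiency with hypomethylated pericentromeric repeats. Its count over all exons did not check the labels in the usual direction. The *Zbtb24* level was 14.1 and 16.5 cpm (counts scaled to library size and edgeR's TMM factors) in the WT libraries of 1000 cells and 40.9 and 37.7 cpm in the KO libraries. It was 19.5 and 20.3 cpm in the WT libraries of 100 cells and 39.7 and 37.3 cpm in the KO libraries. A whole-gene count cannot show the loss of a floxed segment, so each direction below rests on the labels of the libraries alone. All 8 libraries held RNA of the 10 ES cell markers, with a summed level between 5985 and 7589 cpm. *Dppa5a* alone gave 2568 to 3314 cpm of that sum. Of the 10 markers 5 were higher and 3 lower in the KO than in the WT libraries of 1000 cells (edgeR). From 100 cells 4 were higher and 1 lower. Of all tested genes 41.5% and 34.2% were called in these comparisons. The 2 KO libraries of 100 cells stood apart in 8 oligodendrocyte markers, with summed levels of 259.1 and 266.8 cpm against 43.0 to 53.7 cpm in the other 6 libraries, and all 7 of these genes that were tested were higher in the KO than in the WT libraries of 100 cells (edgeR). Of 11 neuron markers 9 were higher and 1 lower in that comparison, with a median log2 ratio of 1.65, and of 7 astrocyte markers 5 were higher and 1 lower, with a median of 4.13. Their sums, which the most abundant gene of a list can dominate, moved less: neuron markers summed to 561.9 and 587.2 cpm in these libraries and 414.9 to 540.9 cpm elsewhere, and astrocyte markers to 257.7 and 250.7 cpm against 169.5 to 214.1 cpm. Blood, trophoblast, primitive endoderm and fibroblast markers each summed to under 100 cpm in every library. The part of these markers in the comparisons of 100 cells was not tested. The 2 WT libraries of 100 cells differed most between replicates, with a chi-square per degree of freedom of 17.6 across genes against 1.99 to 3.28 in the other groups. The medians of 2 chromosomes also differed between the genotypes. The median log2 ratio of KO to WT over 501 genes of chromosome 1 was 0.55 from 1000 cells and 0.45 from 100 cells. Over 473 genes of chromosome 8 it was -0.25 and -0.26. Whether all or part of these chromosomes differed was not tested. None of the 9 genes lies on these chromosomes, and the medians of the other chromosomes that hold genes described here lay between -0.14 and 0.10.

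**Figure D1:**
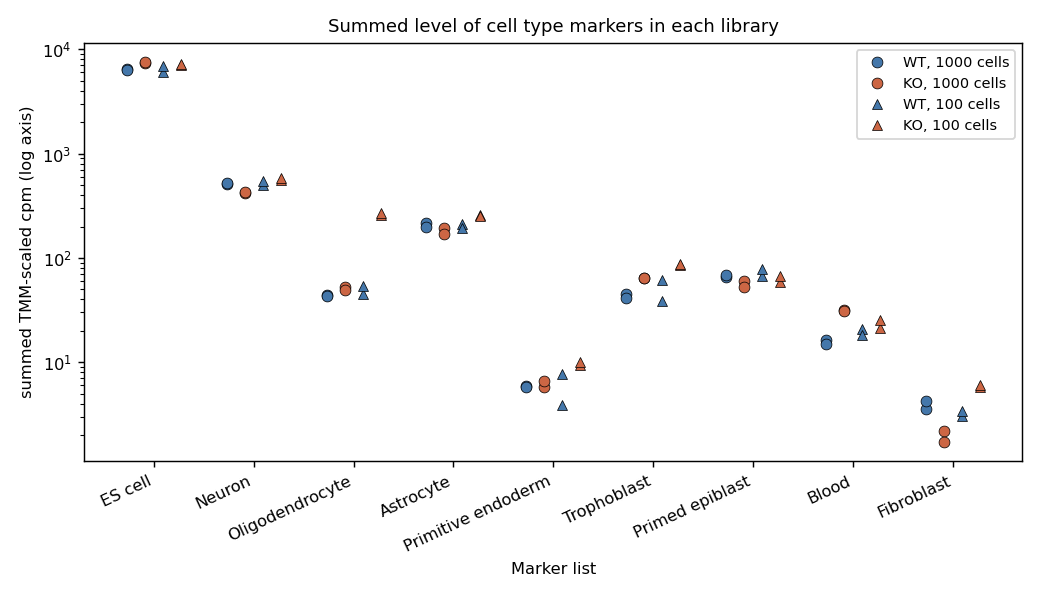
Summed level of the genes of each cell type marker list in every library (y axis, TMM-scaled cpm, log axis), with WT in blue, KO in orange, 1000 cells as circles and 100 cells as triangles. The 2 KO libraries of 100 cells lie at 259.1 and 266.8 cpm for oligodendrocyte markers, and the other 6 libraries at 43.0 to 53.7 cpm.

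The levels of the 9 genes can be set side by side only per length. Scaled to each gene's exon length (cpm per kb), the order in the WT libraries of 1000 cells was *Dnmt3l* (66.0 ± 0.57, SD, n = 2), *Tet1* (48.8 ± 3.85), *Dnmt3b* (37.9 ± 2.80), *Uhrf1* (37.7 ± 1.45), *Tdg* (17.0 ± 0.576), *Dnmt1* (13.5 ± 0.39), *Dnmt3a* (12.5 ± 0.767), *Tet2* (8.31 ± 0.0733) and *Tet3* (0.276 ± 0.0163). *Dnmt3b* and *Uhrf1* changed places between the replicates and were not separated by their spread. In the KO libraries of 1000 cells *Uhrf1* (37.0 ± 2.71) and *Tet1* (36.2 ± 1.64) led and did not differ beyond their spread, and *Dnmt3l* followed at 24.9 ± 0.204. *Dnmt3b* stood at 8.43 ± 0.495 there, level with *Tet2* at 8.51 ± 0.115, and *Dnmt3a* at 6.22 ± 0.293. In the WT libraries of 100 cells *Dnmt3l* (84.7 ± 1.83) again came first, before *Uhrf1* (48.4 ± 0.153) and *Dnmt3b* (41.7 ± 0.251). *Dnmt1* (14.4 ± 2.33) and *Dnmt3a* (13.3 ± 0.302) overlapped in that group. In the KO libraries of 100 cells *Uhrf1* (47.1 ± 1.56) came before *Dnmt3l* (34.3 ± 1.39), *Tet1* (26.5 ± 0.876) and *Tdg* (24.4 ± 0.514), while *Dnmt3b* had 17.0 ± 0.16. *Tet3* was the lowest of the 9 in every library, with 18 to 83 counts. Exon lengths were the union of all annotated transcripts, which is longer than the transcripts a cell uses, and the kit primes from the poly(A) tail, so these orders are approximate.

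**Figure D2:**
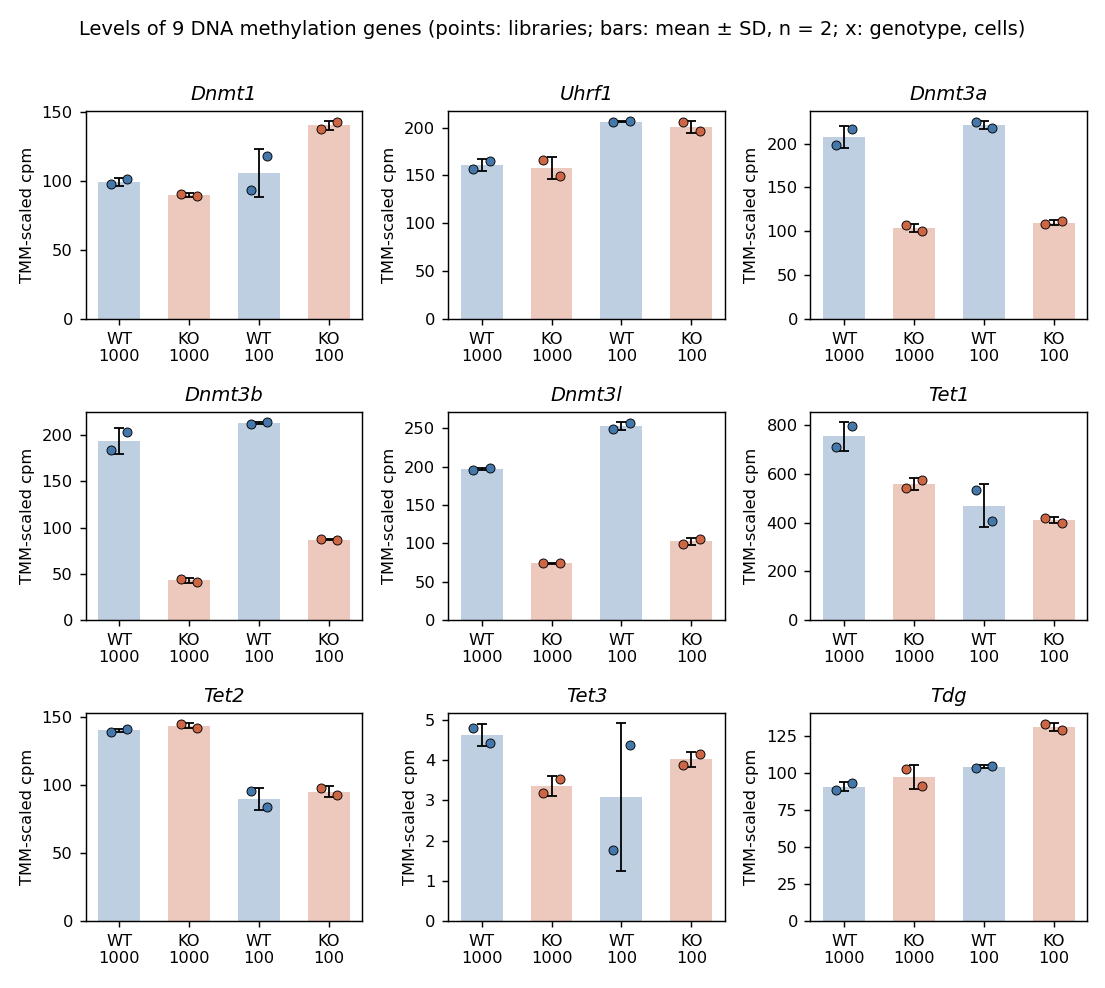
TMM-scaled cpm (y axis, from 0) of the 9 genes in the 4 groups of 2 libraries (x axis, genotype above number of cells); points are libraries and bars are means ± SD. For *Dnmt3a*, *Dnmt3b* and *Dnmt3l* all 4 KO libraries lie below all 4 WT libraries, and for *Tet1* and *Tet2* the libraries of 100 cells lie below those of 1000 cells of the same genotype.

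The libraries labelled KO held less RNA of all 3 de novo genes, *Dnmt3a*, *Dnmt3b* and *Dnmt3l*, at both inputs. The catalytic genes *Dnmt3a* and *Dnmt3b* lie at chr12:3806007-3914443 and chr2:153649450-153687730 (plus strand, GRCm38), and *Dnmt3l*, the cofactor gene, at chr10:78041947-78063622 (plus strand). From 1000 cells, 4 of the 9 genes were lower and 0 were higher in the libraries labelled KO, against 20.6% of all tested genes lower and 20.9% higher (41.5% in all). From 100 cells, 3 were lower and 1 was higher, against 16.6% and 17.6% (34.2% in all). All 3 de novo genes were lower at both inputs, which 9.24% of all tested genes were. Their 4 KO libraries all lay below their 4 WT libraries, a pattern that 13.9% of tested genes showed. In bulk libraries a change in the share of cells that use a gene and a change in RNA per cell cannot be told apart.

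*Dnmt3b* had the largest ratio of the 9 genes from 1000 cells, and from 100 cells its ratio was level with that of *Dnmt3l*. The *Dnmt3b* level was 183 and 204 cpm in the WT libraries of 1000 cells and 44.8 and 41.3 cpm in the KO libraries. From 100 cells it was 212 and 214 cpm in the WT libraries and 87.5 and 86.3 cpm in the KO libraries. The groups did not overlap at either input, and the KO libraries of 100 cells lay above those of 1000 cells. The log2 ratio of KO to WT was -2.17 (95% interval -2.33 to -2.01, adjusted p = 6.05e-19, edgeR quasi-likelihood test with Benjamini-Hochberg adjustment over all genes) from 1000 cells, which is 4.49-fold lower. It was -1.34 (-1.57 to -1.11, adjusted p = 4.78e-05) from 100 cells, or 2.53-fold lower. The size of the first ratio exceeded that of 96.7% of tested genes, and that of the second 82.8%. Of 50-base windows in *Dnmt3b* exons, 9.81% also occur in other genes, chiefly the germ line paralog *Dnmt3c*, and multiply mapped fragments were discarded. *Dnmt3c* itself had 0 to 7 counts per library.

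*Dnmt3l* fell by a like factor at both inputs. The *Dnmt3l* level was 196 and 199 cpm in the WT libraries of 1000 cells and 74.0 and 74.8 cpm in the KO libraries, and 249.2 and 257 cpm against 99.6 and 105 cpm from 100 cells. The levels of both genotypes lay higher from 100 cells, and the genotypes did not overlap at either input. The log2 ratio was -1.41 (-1.55 to -1.27, adjusted p = 5.56e-16, edgeR) from 1000 cells and -1.35 (-1.58 to -1.12, adjusted p = 4.78e-05) from 100 cells. *Dnmt3l* shares 67 exonic bases with *Aire* on the other strand, which had 160 to 523 counts, and the kit does not mark strand.

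*Dnmt3a* fell by a similar amount at both inputs. The *Dnmt3a* level was 199 and 217 cpm in the WT libraries of 1000 cells and 107 and 100.04 cpm in the KO libraries. From 100 cells it was 225 and 218 cpm against 108 and 112 cpm. The log2 ratio was -1.01 (-1.15 to -0.86, adjusted p = 1.24e-12, edgeR) from 1000 cells and -1.06 (-1.29 to -0.83, adjusted p = 0.000166) from 100 cells. The ratio of *Dnmt3b* to *Dnmt3a* level per kb was 3 to 3.20 in the 4 WT libraries, 1.37 and 1.34 in the KO libraries of 1000 cells and 2.64 and 2.52 in those of 100 cells.

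The promoters of the 3 de novo genes are printed because these genes fell together. Each line holds 120 bases of RefSeq sequence upstream of a start site (GRCm38, plus strand), and *Cdca7*, a regulator gene described below, is added as a gene of similar change. Capitals mark a GC box (GGGCGG on either strand) in the *Dnmt3a*, *Dnmt3b* and *Dnmt3l* sequences and the ZBTB24 motif core CAGGACC in that of *Cdca7*. The *Dnmt3a* window is chr12:3807040-3807159, the *Dnmt3b* window chr2:153649329-153649448, the *Dnmt3l* window chr10:78042167-78042286 and the *Cdca7* window chr2:72476099-72476218.
Dnmt3a: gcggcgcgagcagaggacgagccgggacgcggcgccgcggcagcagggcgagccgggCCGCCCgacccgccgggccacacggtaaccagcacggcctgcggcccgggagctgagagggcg
Dnmt3b: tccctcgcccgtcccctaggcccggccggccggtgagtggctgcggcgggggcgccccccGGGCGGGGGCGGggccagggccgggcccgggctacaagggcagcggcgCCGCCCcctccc
Dnmt3l: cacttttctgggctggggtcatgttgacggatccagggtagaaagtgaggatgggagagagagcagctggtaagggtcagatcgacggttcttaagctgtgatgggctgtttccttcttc
Cdca7: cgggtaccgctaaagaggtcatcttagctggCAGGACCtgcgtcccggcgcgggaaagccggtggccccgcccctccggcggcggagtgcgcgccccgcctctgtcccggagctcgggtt
The 3 windows differ in CpG content, with 21 CpG in the *Dnmt3a* window, 16 in that of *Dnmt3b* and 3 in that of *Dnmt3l*, which holds no GC box. The contrast depends on the window: the 120 bases before a second *Dnmt3a* start had 6 CpG and no GC box. Over 300 bases around the starts, the 3 *Dnmt3l* promoters had 3 to 6 CpG, under the median of 7 over 32851 promoters, while *Dnmt3b* had 30 and the 3 *Dnmt3a* promoters had 18 to 47. At this length a GC box was present at the *Dnmt3l* start shown and at 2 of its 3 starts. A GC box was present in 12 of the 16 promoters of the 9 genes and in 35.7% of all promoters. Some of the 16 belong to the same gene, 2 of the *Dnmt3a* windows overlap, and the 35.7% was not matched for CpG or GC content. CAGGACC, on either strand, was present in 0 of the 16 and in 6.81% of all promoters. A match is a description of letters and not of binding.

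**Figure D3:**
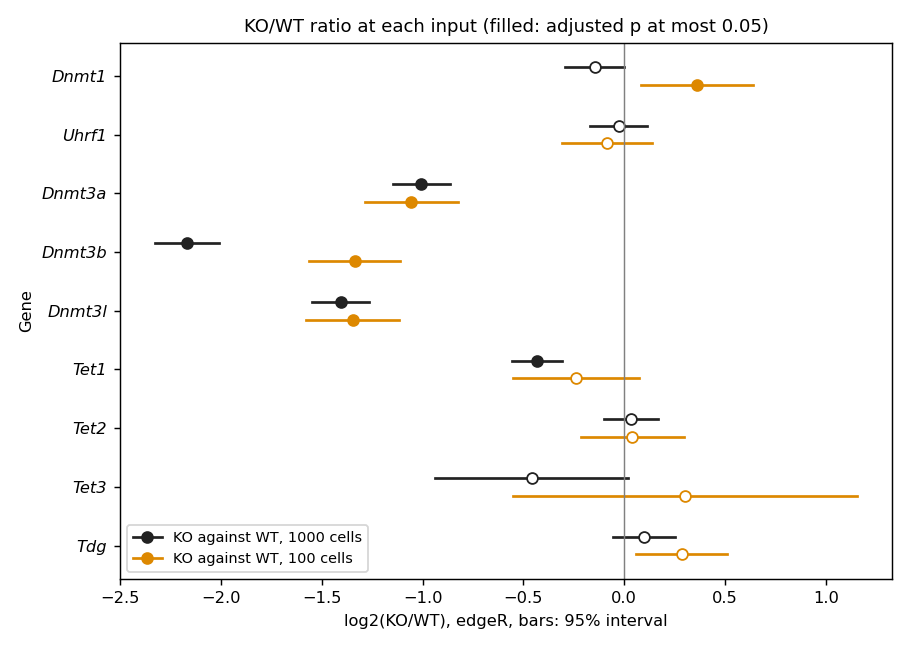
Fitted log2 ratio of KO to WT (x axis) for each of the 9 genes (y axis) from 1000 cells (black) and 100 cells (orange); bars are 95% intervals and filled points have an adjusted p of at most 0.05. *Dnmt3a* and *Dnmt3l* have overlapping intervals at the 2 inputs, while *Dnmt3b* lies at -2.17 and -1.34.

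Of the maintenance genes, *Dnmt1* was called from 100 cells and *Uhrf1* at neither input. *Dnmt1* (chr9:20907209-20959888, minus strand) had 97.5 and 102 cpm in the WT libraries of 1000 cells and 90.6 and 89.0 cpm in the KO libraries. From 100 cells *Dnmt1* had 93.7 and 118 cpm in the WT libraries and 138 and 143 cpm in the KO libraries, so the KO libraries lay below WT at one input and above it at the other. The log2 ratio was -0.15 (-0.30 to 0.00, adjusted p = 0.103, edgeR) from 1000 cells and 0.36 (0.08 to 0.64, adjusted p = 0.0476) from 100 cells. The call from 100 cells was lost under 6 of 15 alternatives, over which the adjusted p ranged from 6.18e-09 to 0.38. These were DESeq2 (0.0583), a filter of 1 count in 1 library (0.0955), thinned counts (0.0549), GC and length offsets (0.126) and leaving out KO replicate 1 (0.281) or 2 (0.38) of 100 cells. *Uhrf1* (chr17:56303321-56323486, plus strand) had 156 and 165 cpm in the WT libraries of 1000 cells and 166 and 149 cpm in the KO libraries, which overlapped. From 100 cells *Uhrf1* had 206 and 207 cpm in the WT libraries and 205 and 196 cpm in the KO libraries. The *Uhrf1* log2 ratio was -0.03 (-0.17 to 0.11) from 1000 cells and -0.08 (-0.31 to 0.14) from 100 cells, and neither passed the test. Of its 50-base windows, 15.4% also occur elsewhere, nearly all in *Gm5648*. Summed over the catalytic genes, the level per kb of *Dnmt3a* and *Dnmt3b* was 3.43 to 4.33 times that of *Dnmt1* in the 4 WT libraries and 1.17 to 1.26 times in the 4 KO libraries.

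Of the 3 *Tet* genes *Tet1* alone was called between the genotypes, and from 1000 cells only. *Tet1* (chr10:62804570-62908996, minus strand) encodes the main TET dioxygenase of mESCs. The *Tet1* level was 712 and 796 cpm in the WT libraries of 1000 cells and 541 and 577 cpm in the KO libraries, with no overlap. From 100 cells it was 532 and 407 cpm in the WT libraries and 420 and 401 cpm in the KO libraries, which overlapped. The *Tet1* log2 ratio was -0.43 (-0.55 to -0.31, adjusted p = 8.97e-07, edgeR) from 1000 cells, or 1.35-fold lower, and -0.24 (-0.55 to 0.07, adjusted p = 0.208) from 100 cells. Without replicate 2 of the WT libraries of 100 cells the latter became -0.41 (adjusted p = 8.03e-09). *Tet2* (chr3:133463679-133545139, minus strand), whose product lacks the DNA-binding CXXC domain of TET1, had 139 and 141 cpm in the WT libraries of 1000 cells and 145 and 142 cpm in the KO libraries. From 100 cells *Tet2* had 95.5 and 84.1 cpm in the WT libraries and 97.9 and 92.6 cpm in the KO libraries. The *Tet2* log2 ratio was 0.04 (-0.10 to 0.17) from 1000 cells and 0.04 (-0.22 to 0.30) from 100 cells, and neither passed the test. *Tet3* (chr6:83362373-83459084, minus strand), the TET gene of the oocyte and zygote, had 83 and 54 counts in the WT libraries of 1000 cells and 41 and 51 in the KO libraries. From 100 cells *Tet3* had 18 and 58 counts in the WT libraries and 52 and 55 in the KO libraries, and the WT replicates differed from each other more than the genotypes did at 1000 cells. The *Tet3* log2 ratio was -0.46 (-0.94 to 0.02) and 0.30 (-0.55 to 1.16) from 1000 and 100 cells, and neither passed the test. From 100 cells it was 1.13 (adjusted p = 0.00716, edgeR) without replicate 2 of the WT libraries and -0.16 (adjusted p = 0.632) without replicate 1.

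*Tdg* (chr10:82629828-82650799, plus strand), the glycosylase gene, had 88.9 and 93.3 cpm in the WT libraries of 1000 cells and 103 and 91.6 cpm in the KO libraries, which overlapped. From 100 cells it had 104 and 105 cpm in the WT libraries and 133 and 129 cpm in the KO libraries, with no overlap. The *Tdg* log2 ratio was 0.10 (-0.06 to 0.25) from 1000 cells and 0.29 (0.06 to 0.51, adjusted p = 0.0535, edgeR) from 100 cells. The latter passed the threshold under 7 of 15 alternatives, with an adjusted p from 0.00023 to 0.491. It was 0.000369 without WT replicate 1 of 100 cells and 0.00023 without WT replicate 2. Of the 9 genes *Tdg* shares most sequence with others, since 41.2% of its 50-base windows also occur in other genes, among them *Tdg-ps* (75 to 138 counts) and *Gm9855* (56 to 115 counts).

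The KO to WT ratio differed between the 2 inputs for 2 of the 9 genes, against 16.3% of all tested genes. In both the ratio was higher from 100 cells, as in 9.28% of all tested genes, while it was lower in 7.05%. For *Dnmt3b* the ratio from 100 cells was higher by 0.87 on the log2 scale (SE 0.129, 95% interval 0.60 to 1.15, adjusted p = 0.00114, edgeR interaction of genotype and cell number). For *Dnmt1* it was higher by 0.55 (SE 0.147, interval 0.24 to 0.86, adjusted p = 0.0216, edgeR). This call was lost with GC and length offsets, and when any library of 1000 cells or either KO library of 100 cells was left out. Over 17 alternatives the *Dnmt1* difference was 0.38 to 0.73. For *Dnmt3a* the difference was -0.01 (-0.27 to 0.26) and for *Dnmt3l* 0.10 (-0.15 to 0.36). The difference for *Tet1* was 0.24 (-0.10 to 0.58), for *Tet2* 0.05 (-0.22 to 0.33), for *Tdg* 0.23 (-0.04 to 0.51) and for *Uhrf1* -0.01 (-0.27 to 0.25), and none of them passed the test. The *Tet1* difference passed without replicate 1 of the WT libraries of 100 cells, at 0.44 (adjusted p = 0.000273), and was 0.06 to 0.44 over all libraries left out in turn. The *Tet3* interval was wide, at 0.80 (-0.16 to 1.75), and the difference was 1.63 (adjusted p = 0.00338) without replicate 2 of the WT libraries of 100 cells. The 2 KO libraries of 100 cells, which enter each of these differences, are those with the raised oligodendrocyte markers.

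Between the inputs, *Tet1* and *Tet2* were lower from 100 cells in both genotypes. In the WT libraries 2 of the 9 genes were lower and 0 higher from 100 cells, against 0.678% and 0.149% of all tested genes. In the libraries labelled KO 5 were higher and 2 lower, against 27.3% and 24.8%. The log2 ratio of 100 to 1000 cells was -0.70 (-0.99 to -0.40, adjusted p = 0.0311, edgeR) for *Tet1* and -0.66 (-0.92 to -0.39, adjusted p = 0.0267) for *Tet2* in the WT libraries. Both calls were lost without either WT library of 1000 cells, with adjusted p of 0.225 and 1 for *Tet1* and 0.427 and 1 for *Tet2* without replicates 1 and 2. In the libraries labelled KO the log2 ratio was -0.44 (-0.55 to -0.34, adjusted p = 5.68e-09) for *Tet1* and -0.59 (-0.71 to -0.47, adjusted p = 7.55e-10) for *Tet2*. Their longest transcripts have 14369 and 9179 bases, with 43.7% and 45.4% GC. The 307 genes with transcripts of at least 9000 bases had a median log2 ratio of -0.28 in WT and -0.24 in KO, with 81.8% and 79.8% below 0, against 0.06 and -0.01 for genes under 3000 bases. With offsets for GC content and length, the WT ratios were -0.42 (adjusted p = 0.129) for *Tet1* and -0.47 (adjusted p = 0.081) for *Tet2*, and the KO ratios were -0.21 (adjusted p = 6.46e-05) and -0.43 (adjusted p = 1.89e-08). *Dnmt3a*, with 9685 bases and 51.9% GC, had log2 ratios of 0.08 in WT and 0.09 in KO.

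Of the genes that were higher from 100 cells in the libraries labelled KO, *Dnmt3b* had a log2 ratio of 1.02 (0.87 to 1.17, adjusted p = 1.33e-13, edgeR), *Dnmt1* of 0.65 (0.52 to 0.77, adjusted p = 1.03e-10) and *Dnmt3l* of 0.47 (0.33 to 0.60, adjusted p = 3.65e-07). *Tdg* had 0.43 (0.30 to 0.57, adjusted p = 1.01e-06) and *Uhrf1* 0.35 (0.23 to 0.47, adjusted p = 6.76e-06). In the WT libraries the same ratios were 0.13 for *Dnmt3b*, 0.08 for *Dnmt1*, 0.34 for *Dnmt3l*, 0.18 for *Tdg* and 0.35 for *Uhrf1*, and none passed the test. Those of *Uhrf1* and *Dnmt3l* passed without either WT library of 100 cells. For *Uhrf1* the log2 ratio was then 0.30 to 0.40 (adjusted p = 0.000766 without replicate 1 and 0.000188 without replicate 2), and for *Dnmt3l* the adjusted p was 0.000153 and 0.000229. Between inputs the share of all tested genes called was 0.827% in WT and 52.1% in KO.

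**Figure D4:**
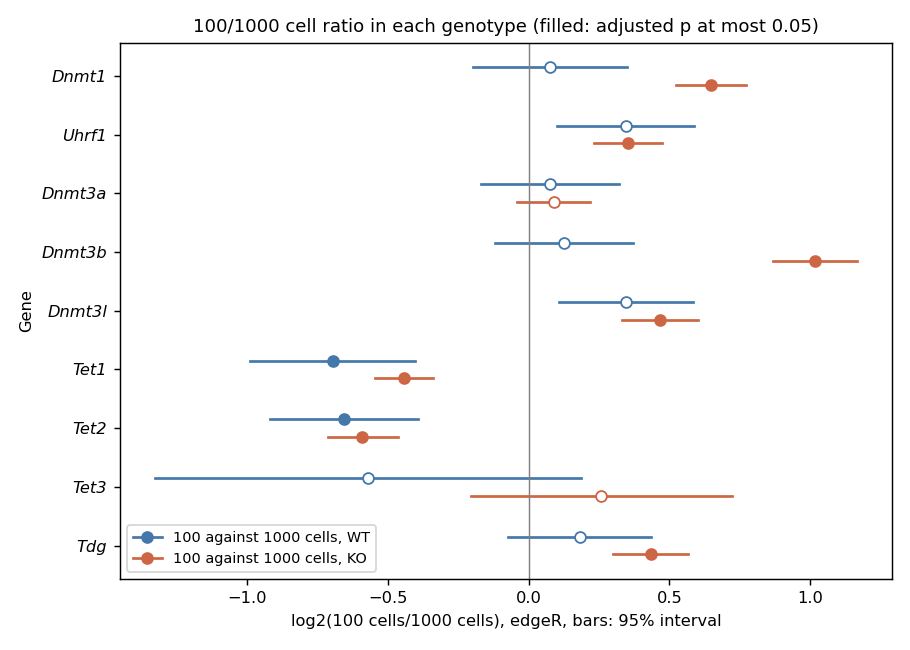
Fitted log2 ratio of 100 to 1000 cells (x axis) for each of the 9 genes (y axis) in the WT libraries (blue) and the KO libraries (orange); bars are 95% intervals and filled points have an adjusted p of at most 0.05. *Tet1* and *Tet2* lie below 0 in both genotypes, and *Dnmt3b* lies at 0.13 in WT and 1.02 in KO.

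Across the 8 libraries the log2 levels of the de novo genes moved together, with Pearson's r of 0.945 for *Dnmt3a* and *Dnmt3b*, 0.974 for *Dnmt3a* and *Dnmt3l* and 0.978 for *Dnmt3b* and *Dnmt3l*. The r was 0.815 for *Tet1* and *Tet2*, 0.861 for *Dnmt1* and *Tdg*, -0.945 for *Uhrf1* and *Tet2* and -0.818 for *Tet1* and *Tdg*. The 8 points share genotype, input and library depth, so these values are descriptions. Among 8367 other genes, the pattern closest to *Dnmt3a* was that of *Pla2g10* (r = 0.997), that closest to *Dnmt3b* was *Trappc5* (0.994) and that closest to *Dnmt3l* was *Timm44* (0.996). *Lmnb1* was closest to *Dnmt1* (0.995), *Acly* to *Uhrf1* (0.982), *Rev3l* to *Tet1* (0.995), *Smg1* to *Tet2* (0.991) and *Dvl2* to *Tdg* (0.992).

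Among genes that recruit or regulate these enzymes, 80% were called from 1000 cells (41.5% of all tested genes) and 40% from 100 cells (34.2%), more of them lower than higher in the libraries labelled KO. Of 25 tested, 16 were lower and 4 higher from 1000 cells, with a median log2 ratio of -0.29 (-0.001 over all genes), and 7 were lower and 3 higher from 100 cells, with a median of -0.19. At both inputs 6 were lower, among them *Cdca7*, *Dppa3*, *Ehmt2* and *Kdm2b*, and 2 were higher. This list and those below were chosen with earlier results of these data known. Their genes were not matched for level to all tested genes, so the shares called are descriptions. *Cdca7* encodes the partner that activates the remodeller HELLS, and like *Zbtb24* it is mutated in the same human immunodeficiency. Its counts were 2816 and 1958 in the WT libraries of 1000 cells against 612 and 710 in the KO libraries, and 1663 and 2211 against 800 and 858 from 100 cells. The *Cdca7* log2 ratio was -1.74 (adjusted p = 2.12e-17, edgeR) from 1000 cells and -1.46 (adjusted p = 4.42e-05) from 100 cells, near those of *Dnmt3b* and *Dnmt3l*. *Dppa3*, whose product keeps UHRF1 away from chromatin, stood at -1.18 from 1000 cells (adjusted p = 8.97e-14) and at -1.48 from 100 cells (adjusted p = 0.000138). *Ehmt2*, the H3K9 methyltransferase G9a, had -0.83 and -0.54, and the demethylase gene *Kdm2b*, whose product binds CpG islands, had -0.29 and -0.69. *Hells* itself, named after its values were seen, had -0.26 and -0.38. *Prdm14*, a repressor of *Dnmt3a*, *Dnmt3b* and *Dnmt3l* in naive mESCs, rose by 0.81 from 1000 cells (adjusted p = 1.65e-06) and by 0.64 from 100 cells (adjusted p = 0.0061). It lies on chromosome 1, whose medians were 0.55 and 0.45. The *Prdm14* counts were 313 and 197 in the WT libraries of 1000 cells and 422 and 399 in the KO libraries, and 230 and 277 against 471 and 464 from 100 cells. *Cxxc5*, a CpG-binding regulator of TET2, also rose at both inputs, by 0.53 and 0.75. *Ogt*, the glycosyltransferase that binds TET proteins, rose by 0.46 from 1000 cells, and *Cdca7l*, a paralog of *Cdca7*, rose by 0.58 from 100 cells.

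Of the 10 tested genes of methyl-CpG readers and related proteins, 1 was higher and 2 were lower from 1000 cells, and 2 were higher and 0 lower from 100 cells. The 30% and 20% called lay below the 41.5% and 34.2% of all tested genes. *Mbd3*, a subunit of the NuRD complex, fell from 1000 cells with a log2 ratio of -1.10 (adjusted p = 3.49e-11, edgeR), with counts of 1997 and 1359 in the WT libraries and 769 and 667 in the KO libraries. From 100 cells *Mbd3* had 107 and 116 cpm in the WT libraries and 93.4 and 98.4 cpm in the KO libraries, with no overlap. Its ratio of -0.26 there did not pass. *Zfp57*, which guards imprinted methylation, fell by 0.41 from 1000 cells, and *Mbd4*, a glycosylase that acts on deaminated CpG, rose by 0.49.

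Of the 20 base excision repair partners of TDG tested, 5 were higher and 4 lower from 1000 cells, and 4 higher and 5 lower from 100 cells. The 45% called at each input was near the 41.5% of all tested genes from 1000 cells and above the 34.2% from 100 cells. *Parp1*, a sensor of strand breaks, rose by 0.45 on the log2 scale from 1000 cells (adjusted p = 2.62e-07, edgeR) and by 0.77 from 100 cells (adjusted p = 0.000978). It lies on chromosome 1, whose median of 0.55 from 1000 cells exceeded the ratio of *Parp1* and whose median from 100 cells was 0.45. *Apobec1*, a cytidine deaminase gene, rose by 1.27 and 0.56. *Apex1*, the abasic site endonuclease, fell by 0.71 and 0.55. *Xrcc1*, the repair scaffold, and *Gadd45g*, a stress-induced gene, changed in opposite directions at the 2 inputs. For *Gadd45g* the log2 ratio was -0.95 (adjusted p = 0.00231) from 1000 cells and 0.77 (adjusted p = 0.027) from 100 cells, on 34 to 134 counts per library. The *Xrcc1* ratios were -0.54 (adjusted p = 0.00031) and 0.51 (adjusted p = 0.0289). From 1000 cells *Gadd45a* (0.68) and the glycosylase gene *Neil3* (0.59) were higher and the glycosylase gene *Nthl1* (-0.82) was lower. From 100 cells the uracil glycosylase gene *Ung* (-0.68) and the gap-filling polymerase gene *Polb* (-0.62) were lower. *Neil3* and *Polb* lie on chromosome 8.

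The genes that make the methyl donor S-adenosylmethionine and those that supply the TET cosubstrate 2-oxoglutarate were counted apart. Of 15 methyl donor genes 5 were higher and 4 lower at each input, which is 60% called. *Mat2a*, which makes S-adenosylmethionine, fell by 0.76 from 1000 cells (adjusted p = 4.72e-12, edgeR) and by 0.93 from 100 cells (adjusted p = 0.000563). The *Mat2a* counts were 13943 and 9444 in the WT libraries of 1000 cells and 5990 and 6737 in the KO libraries, and 8841 and 10024 against 5976 and 5798 from 100 cells. *Ahcy*, which clears the product inhibitor S-adenosylhomocysteine, fell by 0.99 and 0.40, and *Shmt1* by 0.42 and 0.36. Its mitochondrial counterpart *Shmt2* rose by 0.32 and 0.68, *Mthfd2* by 0.34 and 0.47 and *Ahcyl1* by 0.42 at each input. *Mthfd1* was lower from 1000 cells (-0.17) and higher from 100 cells (0.42), and from 100 cells *Mtr*, methionine synthase, rose by 0.88 while *Tyms*, thymidylate synthase, fell by 0.37. Of 17 genes around 2-oxoglutarate, 10 were higher and 1 lower from 1000 cells, with a median log2 ratio of 0.34, and 7 were higher and 2 lower from 100 cells, with a median of 0.22. For both lists the shares over all tested genes were 20.9% higher and 20.6% lower from 1000 cells and 17.6% and 16.6% from 100 cells, with a median of -0.001 at each input. Without genes of chromosomes 1 and 8, 7 of the remaining 13 genes around 2-oxoglutarate were higher and 1 lower from 1000 cells (median 0.29), and 4 were higher and 2 lower from 100 cells (median 0.13). The serine pathway gene *Psat1* rose by 0.83 and 0.76, fumarase *Fh1* (chromosome 1) by 0.79 and 0.77, mitochondrial *Idh2* by 0.60 and 0.81, and *Phgdh* by 0.34 and 0.88. *Glud1* fell by 0.23 from 1000 cells. From 100 cells *D2hgdh* (chromosome 1) rose by 0.81, while *Idh3g* fell by 0.39. Over the 5 lists, 23 of 87 tested genes were called in the same direction at both inputs, 13 higher and 10 lower (7.52% and 9.24% of all tested genes), and 3 in opposite directions. How many of all tested genes were called in opposite directions was not counted, so the 3 are a description.

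**Figure D5:**
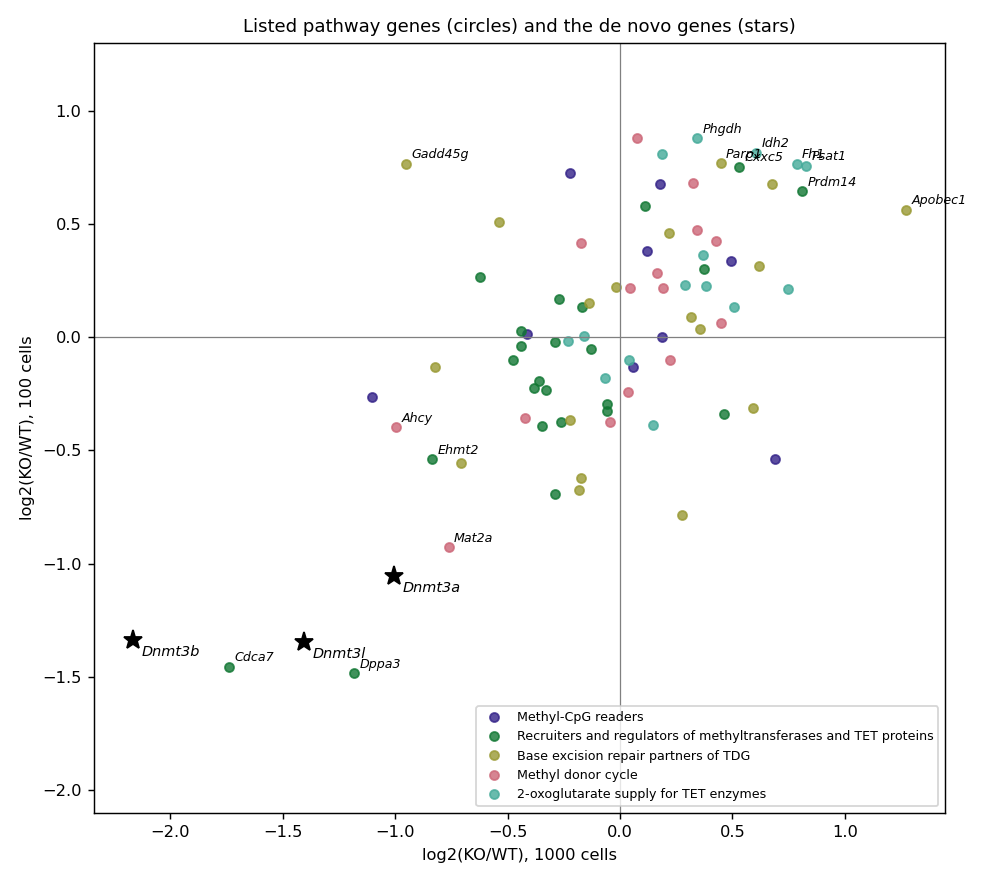
Log2 ratio of KO to WT from 1000 cells (x axis) and 100 cells (y axis) for 81 genes of the 5 lists (circles, coloured by list) and the 3 de novo genes (stars); the 5 list genes with under 10 counts in a library are not drawn, and names mark genes called at both inputs with a ratio over 0.75 in size. *Cdca7* (-1.74 and -1.46) and *Dppa3* (-1.18 and -1.48) lie beside *Dnmt3b* and *Dnmt3l*.

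The named list genes were mostly those with the largest called ratios, so keeping a call was in part set by that choice. The counts below describe these genes and not the lists. Of the 32 named list genes called from 1000 cells, 29 kept their call under every alternative of scaling, filter, tool, depth and libraries, with no limit on the size of the ratio. *Kdm2b*, *Shmt2* and *Mthfd1* lost it when a library was left out, *Kdm2b* also with DESeq2 and with 1 fit of all 8 libraries, and *Mthfd1* also with these 2, a filter of 1 count in 1 library, and GC and length offsets. Without 1 library their log2 ratios were -0.37 to -0.21, 0.19 to 0.45 and -0.24 to -0.10. Of the 32 called from 100 cells, 10 kept their call, among them *Cdca7*, *Dppa3*, *Fh1*, *Idh2*, *Mat2a*, *Mtr*, *Parp1*, *Phgdh* and *Psat1*. The other 22 lost it when a KO library of 100 cells was left out, and some of them also under another scaling, filter, tool or with the offsets. A fit without 1 KO library of 100 cells takes its spread from the 2 WT libraries of 100 cells alone. Those WT libraries had a chi-square per degree of freedom of 17.6 between replicates, against 1.99 for the KO libraries. The part of this spread in the lost calls was not tested. None of the called ratios of the named list genes changed sign.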

How the data were processed

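The libraries were made with the SMARTer Ultra Low RNA Kit v3 and Nextera. Per the labels, the authors used CASAVA 1.8.2, Bowtie2 2.1.0, TopHat2 2.0.10 and HTSeq 0.6.1 with the mm10 build, discarded fragments mapped to several genes or places, and deposited whole-number counts per gene, without normalisation. Of 43309 gene IDs, 42425 matched GENCODE annotation of the same build (98.0%).

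Counts were tested with edgeR 4.0.16 (R 4.3.3) by the quasi-likelihood test with TMM scaling on genes with at least 10 counts in 1 library, and p-values adjusted over the whole table (Benjamini-Hochberg, called at 0.05). Each pair of groups was fitted alone, and the interaction on all 8 libraries. The fit was tested on simulated data with 200 changed genes. Alternatives changed the scaling, filter, tool (DESeq2 1.42.0), depth or libraries. The 9 genes and the lists were chosen with earlier results of these data known. Named list genes are the 3 with the largest ratio in each direction per list and input among called genes of at least 10 cpm on average, and those called in opposite directions. Some list genes are counted but not reported singly here. *Hells* was added after its values were seen. Offsets for GC content and length, and settings without the KO libraries of 100 cells, were added after seeing the data.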

Additional observations from a re-analysis of the deposited data

Results flagged for a closer look

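For some genes the ratio of KO to WT differed between the inputs (edgeR interaction of genotype and cell number, adjusted p at most 0.05). These were 2 of the 9 genes and 11 of the 39 list genes named by rule, against 16.3% of all tested genes. That rule took the largest called ratios at either input and every list gene called in opposite directions. A difference between inputs was thus in part built into the choice of list genes, and their count is a description. Each value is the log2 ratio from 100 cells minus that from 1000 cells. Among the methylation genes it was 0.874 for *Dnmt3b* (adjusted p = 0.00114, edgeR) and 0.551 for *Dnmt1* (adjusted p = 0.0216, a call lost under 7 of 17 alternatives). Among readers, related proteins and regulators it was 0.88 for *Mbd3* and -0.755 for *Ogt*. Among repair genes it was -0.865 for *Neil3*, 0.735 for *Nthl1*, 1.081 for *Xrcc1* and 1.764 for *Gadd45g*. Among methyl donor genes it was 0.64 for *Ahcy*, 0.847 for *Mtr* and 0.633 for *Mthfd1*, and among genes around 2-oxoglutarate -0.492 for *Idh3g* and 0.575 for *Phgdh*. Of the 11 list genes, *Gadd45g*, *Mbd3*, *Mtr* and *Xrcc1* kept the call under every alternative of scaling, filter, tool, depth and libraries, with no limit on the size of the ratio. The 2 KO libraries of 100 cells, with summed oligodendrocyte markers of 259.1 and 266.8 cpm, enter every one of these differences, and their part was not tested.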

How the results depend on the processing

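*Dnmt3a*, *Dnmt3b* and *Dnmt3l* kept their calls at both inputs, and *Tet1* from 1000 cells, under every alternative of scaling, filter, tool, depth and libraries, with no limit on the size of the ratio. The log2 ratios of the 3 de novo genes from 1000 cells ranged from -1.09 to -0.94 (*Dnmt3a*), -2.25 to -2.09 (*Dnmt3b*) and -1.49 to -1.35 (*Dnmt3l*), and from 100 cells from -1.12 to -1.01, -1.36 to -1.29 and -1.39 to -1.23. Of 710 values of the 9 genes under alternatives, 645 kept direction and side of the threshold, 22 lost the call, 19 gained it and 24 changed sign. The cause of these changes was not tested, except that fewer libraries or counts were tested where libraries were left out or thinned.

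Values that changed sign were all uncalled. From 1000 cells KO against WT became -0.051 (library size only) and -0.037 (GC and length offsets) for *Tet2*, and 0.044 (offsets) and 0.01 to 0.048 (WT replicate 2 or KO replicate 2 left out; range over all -0.098 to 0.048) for *Uhrf1*. From 100 cells it ranged from -0.157 to 1.133 for *Tet3* and from -0.042 to 0.145 for *Tet2* over libraries left out. The interaction became 0.021 (library size only), 0.002 (at least 1 count in 1 library), 0.02 (at least 10 counts in every library) and 0.002 (thinned) for *Uhrf1*, and 0.026, 0.008, 0.025 and 0.028 for *Dnmt3a*. Without 1 library it ranged from -0.084 to 0.055 for *Uhrf1*, -0.068 to 0.057 for *Dnmt3a* and -0.039 to 0.144 for *Tet2*, and the WT input ratio of *Dnmt1* from -0.069 to 0.213.

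Counts of calls moved as follows. With a log2 ratio over 1 in size also required, 1634 genes were called from 1000 cells (*Tet1* no longer among them), 2696 from 100 cells, 1177 for the interaction (0 of the 9), 29 for WT input (0 of the 9) and 2717 for KO input (1 of the 9). KO against WT from 1000 cells gave 4341 genes without both KO libraries of 100 cells, with WT of both inputs in the fit. From 100 cells, leaving out 1 library gave 2066 to 9551 genes and 3 to 7 of the 9 genes. The interaction gave 727 to 5633 genes and 1 to 3 of the 9, and 1 of the 9 with GC and length offsets. WT input, with 139 genes and 2 of the 9 in the reported fit, gave 79 genes (library size only), 212 (DESeq2), 442 (edgeR exact test), 463 (at least 1 count in 1 library), 11 and 0 of the 9 (thinned), 676 and 4 (1 fit of all 8 libraries), 38 and 0 (GC and length offsets), 1 of the 9 (at least 10 counts in every library), and 6 to 2631 genes and 0 to 5 of the 9 without 1 library. KO input gave 5641 genes with DESeq2. With library size as the scaling, 39.3% of genes called from 1000 cells were higher, against 50.4% with TMM.

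Whether same-numbered libraries came from the same clone is not stated, and their correlations cannot decide it. The deviations of same-numbered libraries correlated between -0.124 and 0.17, with -0.124 between the WT inputs. The reported fits treated all libraries as independent, which does not hold if the inputs share clones. With the replicate block 7426 genes were called from 1000 cells, 6433 from 100 cells, 2684 for the interaction, 285 for WT input and 8756 for KO input. With crossed numbers WT input gave 512. The block changed no call among the 9 genes. With 2 libraries in a group, leaving 1 out assumes that the lone library varies like the other group. The ratios of *Tet3* rest on 18 to 83 counts.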
